A study of Mus musculus with 4 samples.

Results

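The serine proteases named Prss and Tmprss were followed in RNA from the testis of FVB mice, with 2 libraries from lrrc8a mutants (MUT) and 2 from wild-type mice (WT). Both genotypes share strain and tissue, and the labels give neither the kind of mutation nor the age of the animals, nor whether each library came from its own animal. The LRRC8A protein is part of the anion channel that opens when cells swell, and the study asked how loss of this channel relates to male infertility. Members were all symbols of the deposited table that start with Prss or Tmprss and continue with digits and optional lower-case letters. This gave 55 of 24420 symbols, 38 with a Prss and 17 with a Tmprss name.

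Trypsin-like serine proteases cut proteins after basic residues with a catalytic triad of histidine, aspartate and serine. Most Prss genes encode secreted, membrane-anchored or acrosomal proteins, some of which have lost active-site residues. Most, but not all, Tmprss genes encode proteases held in the membrane by an amino-terminal anchor. In the mouse testis several Prss genes are transcribed in meiotic and post-meiotic germ cells, and their products act in sperm maturation, in the passage of sperm through the oviduct and at the egg coat.

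The libraries held between 40426400 and 68192776 reads assigned to genes, and values are in CPM, read counts that the authors normalised for depth. The deposited values summed to 992487 and 987723 CPM in MUT and to 1.01146e+06 and 1.00853e+06 CPM in WT, so the authors' scaling was not by these totals alone. A level of 3 reads, used here as the floor of detection, corresponds to 0.0445 to 0.0733 CPM depending on the library and covers counting error only. The labels name germ cells as the cell type, but markers of somatic cells were present, for example Cyp17a1 of Leydig cells at 657 and 680 CPM in MUT against 573 and 533 CPM in WT, and Clu of Sertoli cells at 727 and 766 CPM in MUT against 718 and 670 CPM in WT. These markers do not separate whole testis from a germ cell preparation in which somatic cells remained. The libraries are therefore described as a mixture of testis cells. In such a mixture, a change in the number of cells of a type and a change in RNA per cell cannot be told apart. Lrrc8a was at 13.5 and 15.9 CPM in MUT, against 18.2 and 17.2 CPM in WT (a log2 fold change of -0.26 with SE 0.0998, limma adjusted p = 0.218), with both MUT libraries below both WT libraries. As the site and kind of mutation are not given, this level is no test of the genotype labels.

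The members covered a wide range of levels. By their mean over the 4 libraries, 4 were at 100 CPM or more, 14 between 10 and 100 CPM, 14 between 1 and 10 CPM and 14 under 1 CPM but above the floor in at least 1 library. Another 3 were at or under the floor in every library, and 6 were listed at 0 in all. Of the 18 members at 10 CPM or more, 17 were Prss genes and 1, Tmprss12, was a Tmprss gene. These 18 held 96.8% of the summed CPM of the members, and Prss39 alone held 25.5%. The sum was 1371 and 1452 CPM in MUT and 1450 and 1449 CPM in WT, so the genotypes overlapped.

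**Figure D1:**
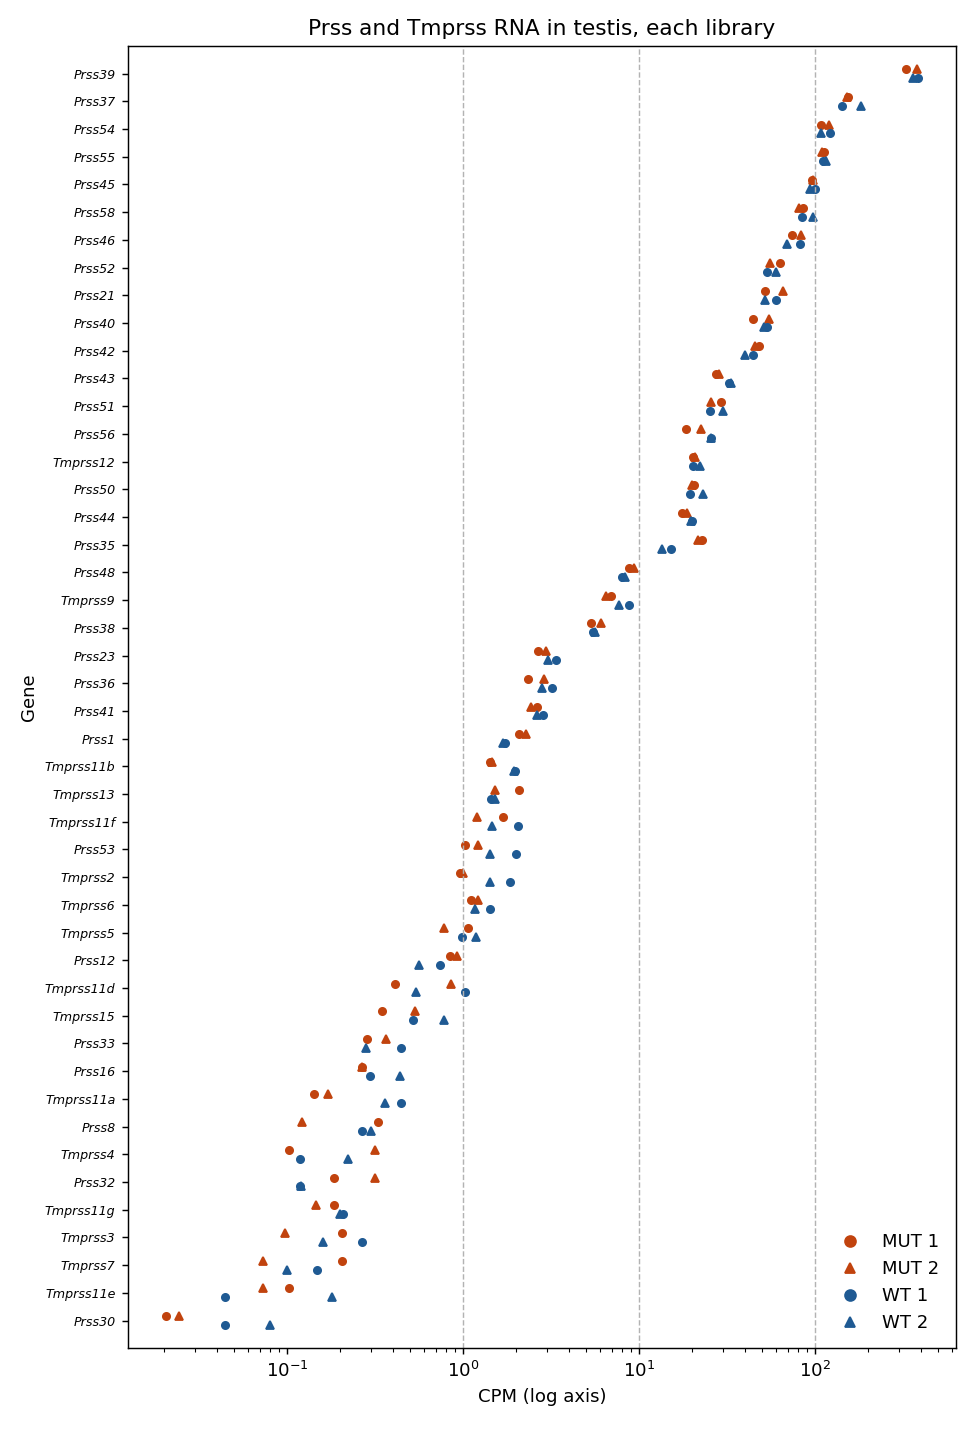
CPM on a log axis in each library (MUT above WT in each row) for the 46 members above the floor in at least 1 library, ordered by mean. Dashed lines mark 1, 10 and 100 CPM; the MUT and WT symbols of most genes lie close together compared with the range between genes, from Prss39 at 365 CPM to Prss30 at 0.0425 CPM.

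Promoter sequences are shown to set the DNA before abundant members beside that of members low or near 0, with the TATA box as the motif marked. The examples were chosen with the values known. RefSeq promoters on GRCm38.p6 were matched by symbol for 40 of the 55 members, of which 13 were at 10 CPM or more, 11 between 1 and 10 CPM and 16 under 1 CPM. The first listed start of each gene was used, and the 250 bases before it were searched on both strands. The letters TATAAA were found in 0 of 13, 1 of 11 and 4 of 16 promoters in these classes, against 13.0% of the promoters of all 27025 genes. The 5 with a match were the pancreatic trypsin genes Prss1, Prss2 and Prss3 and the genes Prss28 and Prss29 of the implantation serine proteases of the uterus. Below are the 250 bases before the start of 3 abundant members (Prss39, Prss21 and Prss35) and of 3 members with the match (Prss1, Prss2 and Prss29), with the TATAAA in capitals:
Prss39, chr1:34498162-34498411, plus strand: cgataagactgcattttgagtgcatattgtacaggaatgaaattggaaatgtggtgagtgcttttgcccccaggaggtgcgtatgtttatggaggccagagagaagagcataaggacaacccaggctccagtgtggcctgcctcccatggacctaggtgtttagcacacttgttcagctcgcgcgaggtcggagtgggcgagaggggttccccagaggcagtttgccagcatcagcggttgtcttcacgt
Prss21, chr17:23867822-23868071, plus strand: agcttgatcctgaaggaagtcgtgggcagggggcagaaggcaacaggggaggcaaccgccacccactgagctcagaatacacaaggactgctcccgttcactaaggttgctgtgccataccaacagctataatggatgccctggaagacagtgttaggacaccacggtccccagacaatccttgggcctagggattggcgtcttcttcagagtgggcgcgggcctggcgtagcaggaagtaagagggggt
Prss35, chr9:86743383-86743632, plus strand: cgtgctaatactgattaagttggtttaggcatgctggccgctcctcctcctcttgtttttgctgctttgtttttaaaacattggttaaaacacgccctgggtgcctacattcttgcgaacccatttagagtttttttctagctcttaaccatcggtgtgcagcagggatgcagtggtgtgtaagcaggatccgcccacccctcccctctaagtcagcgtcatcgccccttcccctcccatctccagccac
Prss1, chr6:41458680-41458929, plus strand: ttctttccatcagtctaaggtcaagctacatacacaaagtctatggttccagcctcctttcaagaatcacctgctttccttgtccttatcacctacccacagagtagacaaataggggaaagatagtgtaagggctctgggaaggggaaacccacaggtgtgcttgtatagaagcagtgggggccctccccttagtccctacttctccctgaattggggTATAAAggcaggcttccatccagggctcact
Prss2, chr6:41521526-41521775, plus strand: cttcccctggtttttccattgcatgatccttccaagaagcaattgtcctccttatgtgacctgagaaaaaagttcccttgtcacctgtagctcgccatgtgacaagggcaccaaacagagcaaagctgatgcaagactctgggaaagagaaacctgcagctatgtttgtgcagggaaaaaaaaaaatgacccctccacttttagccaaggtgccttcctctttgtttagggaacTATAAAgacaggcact
Prss29, chr17:25318404-25318653, plus strand: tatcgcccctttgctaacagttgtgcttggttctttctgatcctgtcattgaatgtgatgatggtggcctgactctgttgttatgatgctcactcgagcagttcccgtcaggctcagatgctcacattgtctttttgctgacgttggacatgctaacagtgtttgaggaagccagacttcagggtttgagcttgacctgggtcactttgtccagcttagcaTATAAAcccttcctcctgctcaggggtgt

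The match began 31 bases before the RefSeq start in Prss1, 29 in Prss29 and 16 in Prss2. For Prss2 the window ends at 41521775, while GENCODE starts the gene at 41521787, so this distance depends on the annotation. The counts of matches are a description, and no match says only that the letters are not in this window. The full cyclic AMP response element TGACGTCA was found in 0 of the 40 promoters, against 1.62% of all promoters. Its half-site TGACG, which is part of the full element, was found in 2 of 13, 2 of 11 and 4 of 16 promoters of the same classes, against 17.9% of all. The letters GTTGCC, a half-site of the X-box bound by RFX factors, were found in 2 of 13, 0 of 11 and 0 of 16, against 10.5% of all. The GC box GGGCGG was found in 2 of 13, 0 of 11 and 2 of 16 promoters, against 32.9% of all. The median GC content of these promoters was 54.8% at 10 CPM or more, 51.6% between 1 and 10 CPM and 47.2% under 1 CPM, against 52.0% for all genes, and single promoters ranged from 33.2% to 64.0%.

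Among acrosomal proteases, Prss39 had the highest level of all members. It encodes the sperm protein TESP1, and lies on chromosome 1 from 34498410 to 34503063 (GRCm38, the build called mm10; plus strand). Prss39 was at 329 and 383 CPM in MUT, against 385 and 362 CPM in WT, and the groups overlapped (a log2 fold change of -0.07 with SE 0.0706, limma adjusted p = 0.675). Its neighbour Prss40 encodes TESP2, and the pair spans 62.5 kb. Prss40 was at 44.6 and 55.0 CPM in MUT, against 53.7 and 51.1 CPM in WT. The transcripts of the pair align at 81.2% identity over 378 nt. Acr, the acrosin gene and the best known protease of the acrosome, is no member by name and was at 277 and 276 CPM in MUT, against 319 and 280 CPM in WT (-0.11, adjusted p = 0.466).

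Compared per kb of exons, Prss39 stood first at 274 CPM per kb, a level above that of 99.4% of the symbols with a length. Prss37 followed at 141 CPM per kb. Then came Prss58, Prss55 and Prss45 at 89.0, 80.3 and 78.6 CPM per kb, where each overlapped the next in order over the libraries. Prss54, Prss46 and Prss52, at 57.7, 57.5 and 54.7 CPM per kb, overlapped each other and lay below those 3 in every library. Prss42, Prss21, Prss40 and Prss51 lay between 22.2 and 28.2 CPM per kb, and Prss50, Prss43, Tmprss12 and Prss56 between 10.6 and 14.3 CPM per kb. Prss48, at 9.105 CPM per kb, ranked above Prss44 at 5.40 and Prss35 at 5.32 CPM per kb, although its CPM was lower. Its annotated exons add up to 949 nt, against 3530 nt and 3444 nt. These lengths join the exons of all transcripts of a gene. The longest single transcript of Prss44 has 1838 nt, so its order against Prss48 depends on the length used. The same holds for Prss55, with 1403 nt of exons and a longest transcript of 1074 nt, against Prss58.

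Prss37 encodes a protein that lacks the complete catalytic triad and is needed in mice for the processing of ADAM3, a sperm protein required for passage into the oviduct. Prss37 was at 155 and 153 CPM in MUT, against 143 and 183 CPM in WT; both MUT values lay between the WT values. Prss55 encodes a membrane-anchored sperm protease whose loss in mice also leaves ADAM3 unprocessed. It was at 113 and 109.7 CPM in MUT, against 112 and 116 CPM in WT, and the highest library exceeded the lowest by a factor of only 1.06. For Prss55 the 95% interval of the log2 fold change ran from -0.17 to 0.11. Prss21 encodes testisin, a protease held on the sperm surface by a GPI anchor. It was at 52.2 and 65.7 CPM in MUT, against 60.4 and 51.8 CPM in WT, and the groups overlapped. Tmprss12, the only Tmprss gene above 10 CPM, is needed for male fertility in mice. It was at 20.2 and 20.8 CPM in MUT, against 20.3 and 22.2 CPM in WT.

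The genes that act with these proteases in sperm surface maturation were described as a list of 20, all tested. It includes Adam3 and other ADAM genes, the chaperone genes Clgn and Calr3, the disulfide isomerase gene Pdilt and the angiotensin-converting enzyme gene Ace. No gene of the list was called in either direction, against 0.749% of all 15364 tested genes. At that share, few or no calls would be seen among 20 genes. Of the log2 fold changes, 9 were above 0 and 11 below it, and the list's median was -0.017 against -0.0016 over all tested genes. The 3 most abundant were Adam5, Adam3 and Clgn. Adam5 was at 1255 and 1200 CPM in MUT, against 1281 and 1329 CPM in WT, and Clgn at 779 and 762 CPM in MUT, against 718 and 719 CPM in WT. Adam3 was at 1148 and 1253 CPM in MUT, against 1231 and 1243 CPM in WT (log2 fold change -0.04, limma adjusted p = 0.78).

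Many members lie side by side in the genome: 36 of the 55 fell into 9 loci in which the gap between neighbours was under 300 kb. Chromosome 9 held 6 members within 66.5 kb, from 110798166 to 110864629, all on the plus strand and all at 10 CPM or more. From left to right they were Prss42, Prss44, Prss43, Prss45, Prss46 and Prss50. Prss42 and Prss43 encode the testis proteases TESSP-2 and TESSP-3, which are needed for the progress of meiosis in mouse germ cells, and Prss50 encodes a protease-like protein in which threonine replaces the catalytic serine. Prss45 was the most abundant, at 96.4 and 97.3 CPM in MUT, against 100.2 and 94.3 CPM in WT. Prss46 was at 73.9 and 83.7 CPM in MUT, against 82.0 and 69.8 CPM in WT, and Prss50 at 20.5 and 19.9 CPM in MUT, against 19.6 and 23.2 CPM in WT. The groups overlapped for these 3 genes.

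The remaining members of the chromosome 9 locus had groups that did not overlap, in different directions. Groups did not overlap in 45.6% of all 15364 tested genes either, so this sets the locus apart in no way. Prss42 was at 48.4 and 45.8 CPM in MUT, against 44.6 and 39.9 CPM in WT (a log2 fold change of 0.16 with SE 0.0802, limma adjusted p = 0.37). Prss43 was at 27.4 and 28.5 CPM in MUT, against 32.7 and 33.4 CPM in WT (-0.24, SE 0.0808, adjusted p = 0.174). Prss44 was at 17.5 and 18.7 CPM in MUT, against 20.2 and 19.9 CPM in WT (-0.14, SE 0.0896, adjusted p = 0.492). None of these differences passed the test.

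Chromosome 14 held 3 abundant members within 38.3 kb, Prss55, Prss51 and Prss52. Prss52, which encodes TESP3, was at 63.8 and 55.3 CPM in MUT, against 53.6 and 60.2 CPM in WT. Prss51 was at 29.3 and 25.8 CPM in MUT, against 25.3 and 30.2 CPM in WT. The bodies of Prss55 and Prss51 overlap on opposite strands, but no exons do in GENCODE.

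The other loci were less uniform. On chromosome 17, 7 members lay within 212.6 kb, and Prss21 was the only one at 10 CPM or more. Beside it, Prss41, the gene of the testis protease TESSP-1, was at 2.64 and 2.44 CPM in MUT, against 2.86 and 2.65 CPM in WT. Prss33, Prss32 and Prss30 were between 0.0425 and 0.345 CPM on average, and Prss22, which encodes a tryptase of airway epithelium, and Prss27 were listed at 0 in every library. A second locus on that chromosome held Prss34, a mast cell and basophil protease gene at or under the floor, and Prss28 and Prss29 at 0. The 7 Tmprss11 genes on chromosome 5, which are known from airway and other surface epithelia, had at most 1.71 CPM on average (Tmprss11b), and Tmprss11c was at 0.

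**Figure D2:**
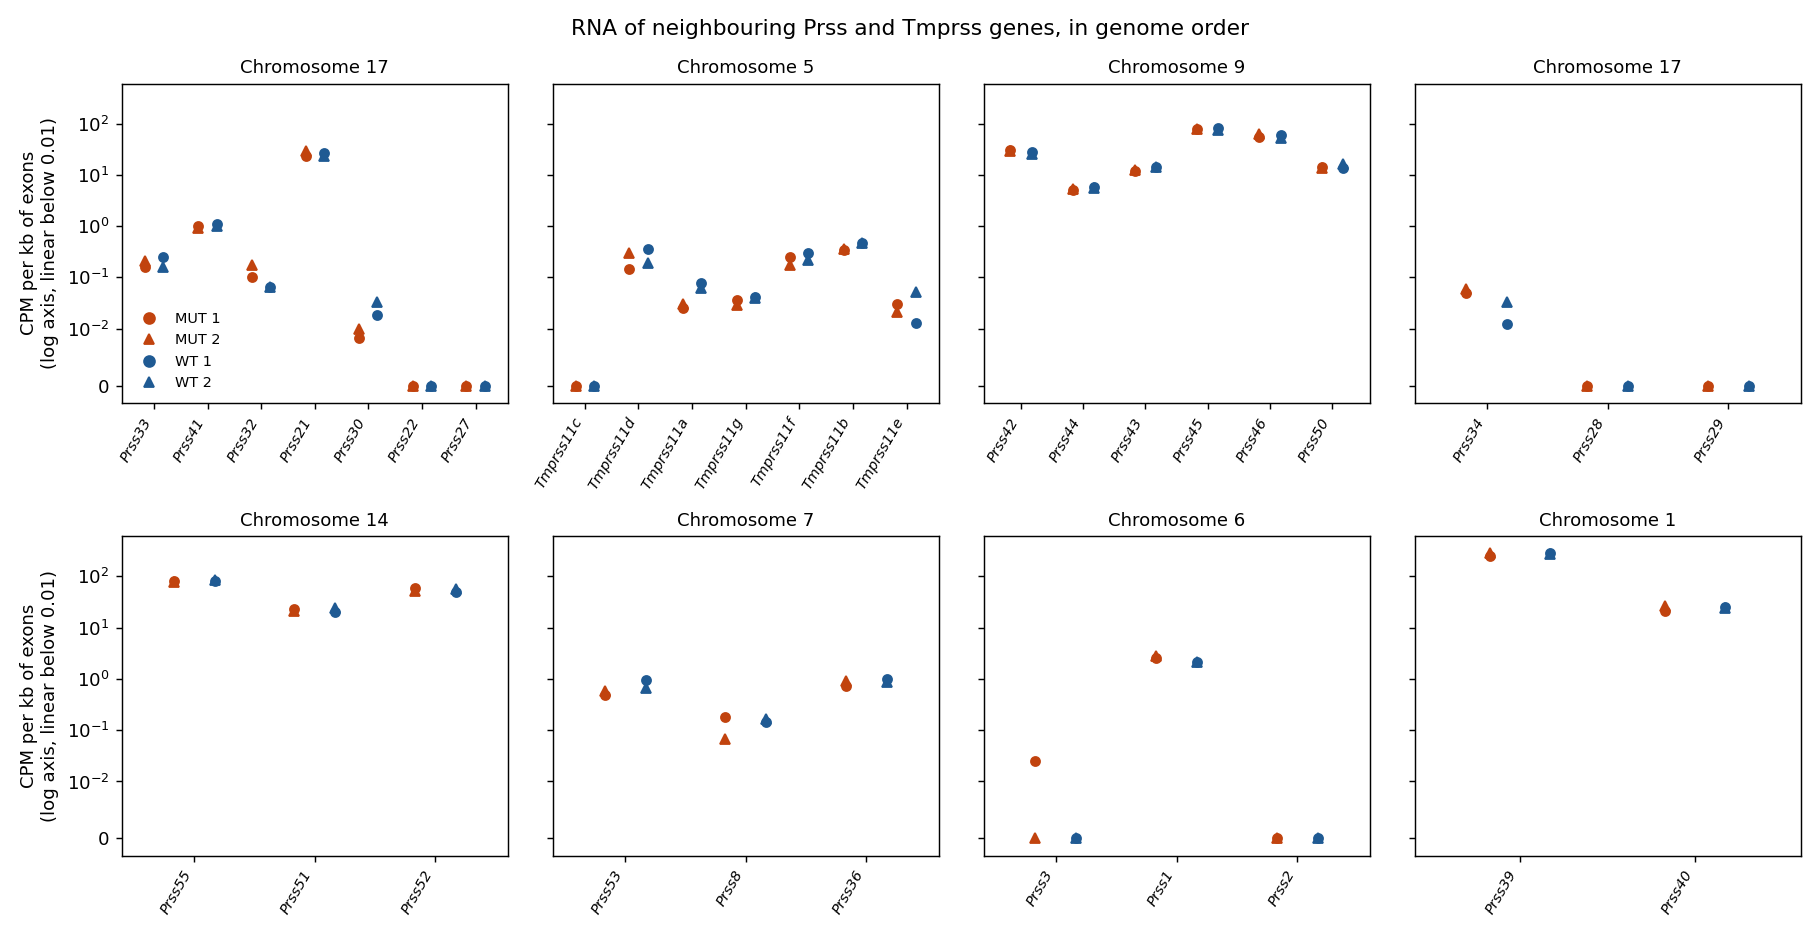
CPM per kb of exons in each library, MUT left of WT, for 8 of the 9 loci with neighbouring members, in genome order (distances not to scale; log axis, linear below 0.01). The locus left out is also on chromosome 9 and holds Tmprss4 and Tmprss13, at 0.190 and 1.64 CPM on average. All 6 genes of the chromosome 9 locus shown lie above 4 CPM per kb, while on chromosome 17 Prss21 at 25.9 CPM per kb stands beside genes at or near 0.

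Other abundant members had no shared locus. Prss54, which encodes a protein without a complete active site, was at 109 and 120.3 CPM in MUT, against 122 and 109 CPM in WT. Prss58 was at 85.8 and 80.8 CPM in MUT, against 84.6 and 97.4 CPM in WT. In both genes the groups overlapped, and the limma adjusted p was 0.974 and 0.475.

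Of the 55 members, 32 reached 1 CPM in at least 2 libraries and were tested. Only 1 was called at an adjusted p under 0.05, Prss35, which rose in MUT, so that 3.13% of tested members were called against 0.749% of all 15364 tested genes. Over all genes 74 were called higher (0.482%) and 41 lower (0.267%), and after scaling that left the 100 most abundant genes out of the total there were 113 and 37. Log2 fold changes lay above 0 in 9 of the 32 and below it in 23, and their median was -0.075, against -0.0016 over all tested genes. The MUT and WT libraries did not overlap for 13 of the 32 members (40.6%), against 45.6% of all tested genes. MUT was higher in 4 of these (12.5%, against 23.0% of all tested genes) and lower in 9 (28.1%, against 22.6%). With unadjusted p, 6 of 32 were under 0.05 (18.8%), against 14.7% of all tested genes.

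Prss35 was at 23.0 and 21.6 CPM in MUT, against 15.3 and 13.5 CPM in WT, so both MUT libraries lay above both WT libraries. Means were 22.3 ± 0.979 CPM in MUT and 14.4 ± 1.25 CPM in WT (SD, n = 2 each), a ratio of 1.55. The log2 fold change was 0.62 (SE 0.0949, 95% interval 0.42 to 0.82, limma adjusted p = 0.00271), and it ranked 26 by size among the 74 genes called higher. Prss35 encodes a secreted protein of the family in which the active-site serine is replaced, and its RNA is known from the mouse ovary, where gonadotropin alters it. It lies on chromosome 9 from 86743649 to 86758443 on the plus strand, with 3444 nt of exons that overlap no other annotated exon, and far from the Prss42 to Prss50 locus. With any single library left out the fold change stayed between 0.53 and 0.70, and each time it was called, but one genotype then had 1 library, which was assumed to vary like those of the other genotype. The call was lost when genes with low values were kept in the fit (adjusted p = 0.102) and without the mean-variance trend (0.147).

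Markers of the other cell types of the testis were set beside Prss35. Of 7 Leydig markers 5 had a log2 fold change above 0 and 1, Cyp17a1, was called higher, and their summed level was 1124 and 1161 CPM in MUT against 982 and 962 CPM in WT. Of 8 Sertoli markers 5 were above 0 and none was called, with sums of 1057 and 1087 CPM in MUT and 1041 and 992 CPM in WT. Of 5 spermatogonial markers 4 were above 0 and 1, Kit, was called higher, with sums of 60.2 and 61.4 CPM in MUT and 48.1 and 53.4 CPM in WT. All 5 peritubular myoid markers were below 0, none was called, and their sums were 94.98 and 104.3 CPM in MUT and 117 and 110.2 CPM in WT. Over all 15364 tested genes, 0.482% were called higher and 0.267% lower. None of the markers of spermatocytes, round and elongating spermatids, macrophages, endothelium and epithelium was called. Of 4 tested macrophage markers 3 were above 0, with sums of 64.6 and 63.7 CPM in MUT and 56.6 and 58.4 CPM in WT. Of 5 spermatocyte markers 2 were above 0, with sums of 4291 and 4187 CPM in MUT and 4364 and 4415 CPM in WT. The sums of round spermatids, elongating spermatids and endothelium overlapped between the genotypes. The part of these cell types in the level of Prss35 was not tested.

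**Figure D3:**
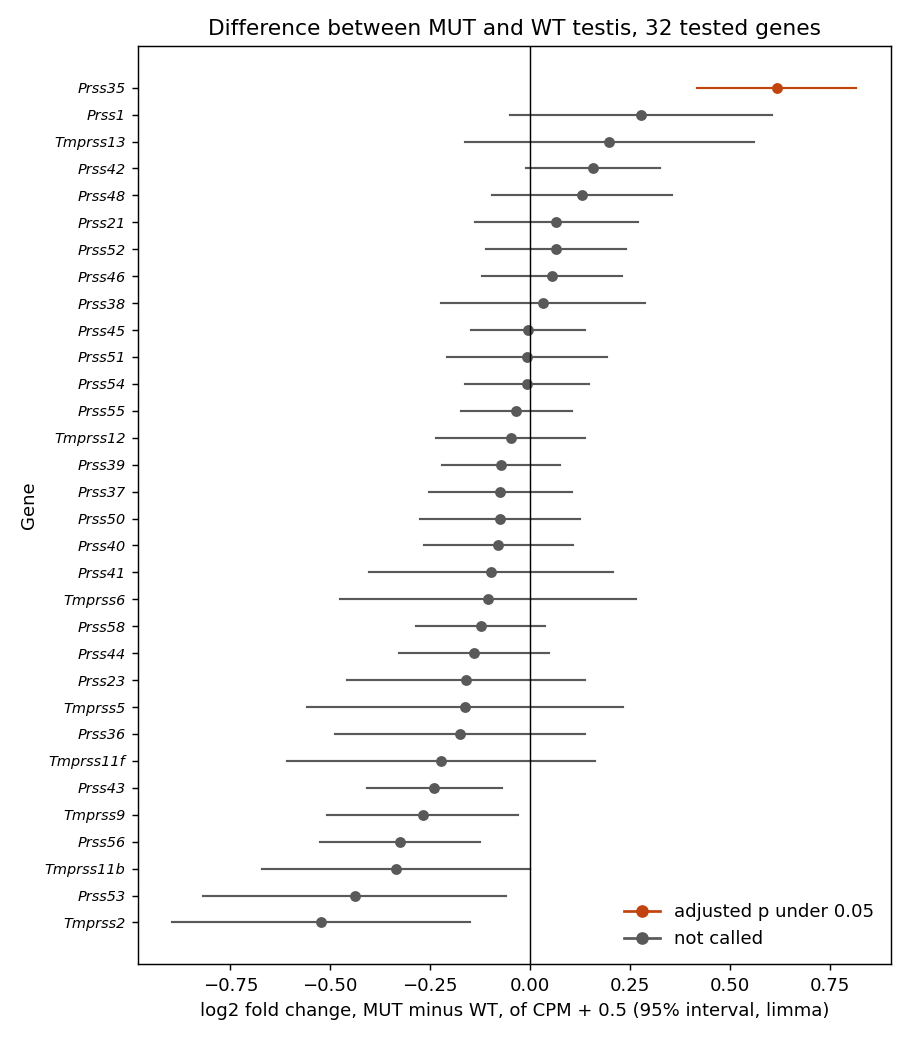
Log2 fold change (MUT minus WT, of CPM + 0.5) with its 95% interval from limma for the 32 tested members, ordered by size. Prss35 at 0.62 is the only called gene; the intervals of Prss56, Prss43, Tmprss2, Prss53 and Tmprss9 lie below 0 but did not pass the adjusted test.

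The 17 other members at 10 CPM or more had log2 fold changes between -0.32 and 0.16 with standard errors between 0.0665 and 0.0968, and their adjusted p lay between 0.116 and 0.983. The highest of their 95% interval bounds was 0.33 and the lowest -0.53. Prss56 was the nearest to the threshold among them. It encodes a trypsin-like protease known for its part in eye growth. Prss56 was at 18.6 and 22.5 CPM in MUT, against 25.7 and 25.7 CPM in WT, so the groups did not overlap (a log2 fold change of -0.32 with SE 0.0956, limma adjusted p = 0.116). The size depended on the MUT library used: it was -0.46 without MUT 2 (adjusted p = 0.023) and -0.19 without MUT 1 (0.687), fits in which the single MUT library was assumed to vary like the WT libraries.

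Members between 1 and 10 CPM were measured with less precision, with standard errors between 0.107 and 0.188. Prss48 was at 8.77 and 9.33 CPM in MUT, against 8.07 and 8.38 CPM in WT, and Prss38 at 5.37 and 6.06 CPM in MUT, against 5.50 and 5.63 CPM in WT. The genes Tmprss9, Prss36 and Prss53 encode polyserases, which carry several protease domains in a chain. Tmprss9 was at 6.97 and 6.55 CPM in MUT, against 8.75 and 7.76 CPM in WT (a log2 fold change of -0.27 with SE 0.114, limma adjusted p = 0.278). Prss36 was at 2.36 and 2.88 CPM in MUT, against 3.22 and 2.81 CPM in WT, with overlapping groups. Prss53 was at 1.03 and 1.22 CPM in MUT, against 2.002 and 1.43 CPM in WT (-0.44, SE 0.181, adjusted p = 0.263). Of its exons, 76.7% are shared on the same strand with the annotated gene Gm21974, and 156 nt overlap Zfp646 on the other strand. Zfp646 was at 401 and 441 CPM in MUT, against 496 and 455 CPM in WT, and if the counting ignored strand, reads of the pair cannot be told apart there.

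Tmprss2, an androgen-regulated gene of prostate and other epithelia, was at 0.964 and 1.002 CPM in MUT, against 1.85 and 1.43 CPM in WT. The groups did not overlap, and the difference was the largest in size below 0 among tested members on the log2(CPM + 0.5) scale (a log2 fold change of -0.52 with SE 0.177, limma adjusted p = 0.174). By counts, edgeR on the recovered reads gave -0.75 (adjusted p = 0.157). Tmprss2 would pass the filter of 1 CPM through WT but not through MUT, where MUT 1 was at 0.964 CPM. Its difference and rank among the tested members are therefore description only. Tmprss11b was at 1.44 and 1.47 CPM in MUT, against 1.97 and 1.95 CPM in WT (-0.34, SE 0.16, adjusted p = 0.34). Tmprss11f was at 1.68 and 1.197 CPM in MUT, against 2.06 and 1.47 CPM in WT, with overlap. Of the 4 markers of epithelium, Epcam was at 23.9 and 19.8 CPM in MUT, against 20.2 and 26.4 CPM in WT, and Krt8 at 8.12 and 10.8 CPM in MUT, against 11.4 and 10.9 CPM in WT. Cdh1 averaged 1.89 CPM and Krt18 averaged 0.532 CPM over the libraries, and the 4 summed to 34.1 and 33.2 CPM in MUT, against 34.1 and 39.8 CPM in WT. All 3 of them that were tested had log2 fold changes below 0, and none was called, against 0.749% of all tested genes. Their part in the levels of the Tmprss genes was not tested.

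Of the other members in this range, Prss23, which encodes a secreted protease, was at 2.69 and 2.98 CPM in MUT, against 3.40 and 3.06 CPM in WT. Tmprss13 was at 2.07 and 1.51 CPM in MUT, against 1.44 and 1.53 CPM in WT. Tmprss6, the gene of matriptase-2, a liver protease that lowers hepcidin, was at 1.11 and 1.22 CPM in MUT, against 1.42 and 1.17 CPM in WT. Tmprss5, the gene of spinesin of the nervous system, was at 1.07 and 0.782 CPM in MUT, against 0.994 and 1.19 CPM in WT. Of these 4, only Prss23 had groups that did not overlap, against 45.6% of all tested genes. Its MUT values were lower, and its limma adjusted p was 0.641.

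**Figure D4:**
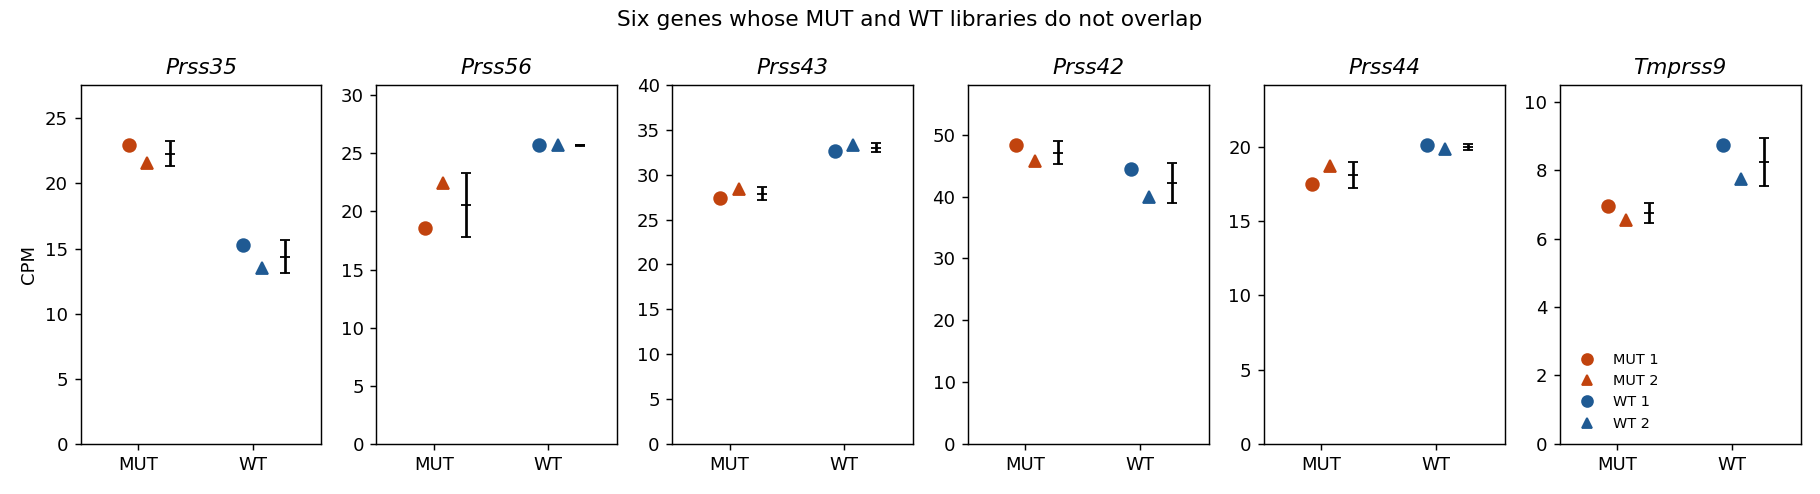
CPM in each library, MUT left of WT, with mean and SD (n = 2 each) in black, for 6 members, picked with the values known, of the 13 whose groups do not overlap; axes start at 0. Prss35, with means of 22.3 CPM for MUT and 14.4 CPM for WT, is the only called gene.

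The trypsin genes on chromosome 6 require care. Prss1, a digestive trypsin of the pancreas, was at 2.07 and 2.30 CPM in MUT, against 1.74 and 1.69 CPM in WT (a log2 fold change of 0.28 with SE 0.156, limma adjusted p = 0.428). Prss3 had reads in MUT 1 only, at 0.0205 CPM, and Prss2, another pancreatic trypsin gene, was listed at 0 in all libraries. Transcripts of Prss1 align to those of Prss3, Gm5771 and Gm10334 at 95.9% to 97.4% identity over 752 to 800 nt, and to those of Prss2 at 89.5% over 754 nt. Reads of such genes can be split or dropped by the counting, so these levels are uncertain. The trypsin-like gene Try5 was at 11.8 and 23.1 CPM in MUT, against 14.5 and 13.3 CPM in WT. Markers of pancreatic acinar cells were near 0: the 6 markers summed to 1.39 and 1.59 CPM in MUT and to 1.75 and 1.51 CPM in WT.

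The 23 members under 1 CPM were not tested. Genes known from other organs were among the 23, with Prss12 (neurotrypsin of the brain) at 0.768, Tmprss11d at 0.708, Tmprss15 (the intestinal enteropeptidase that activates trypsinogen) at 0.547, Prss16 of the thymus at 0.319 and Prss8 (prostasin of epithelia) at 0.255 CPM on average. Tmprss11a, named with the values known, was at 0.144 and 0.171 CPM in MUT, against 0.445 and 0.362 CPM in WT. It would pass a lower filter of 0.2 CPM in 2 libraries only through WT, so no test of its difference is given. Tmprss4, Prss32, Tmprss11g, Tmprss3, Tmprss7 and Tmprss11e lay between 0.1003 and 0.190 CPM on average. At or under the floor in every library were Prss34, Prss57, the gene of neutrophil serine protease 4, and Prss3. Prss57 shares 40.7% of its exons with Fstl3 on the other strand. Of the exons of Prss8, 122 nt overlap Kat8 on the other strand, and Kat8 averaged 117.7 CPM. Transcripts of Tmprss11d align to those of Hsf2, which averaged 51.7 CPM, at 95.15% identity over 165 nt. The part of reads from these genes in the levels of Prss57, Prss8 and Tmprss11d was not tested.

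Prss2, Prss22, Prss27, Prss28, Prss29 and Tmprss11c were listed at 0. A count of 0 allows a level of up to 0.0615 and 0.0733 CPM in MUT 1 and MUT 2 and of up to 0.0445 and 0.0603 CPM in WT 1 and WT 2.

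Related genes outside the name rule were described with lists of relatives and of inhibitors. Of 22 trypsin-like relatives 5 were tested, namely Acr, Corin, Try5, Plat and Plau. No relative was called, against 0.749% of all 15364 tested genes. Of the 5 log2 fold changes, 4 were above 0 and 1, that of Acr, below it, with a median of 0.21. Corin, the gene of the heart protease that activates natriuretic peptide, was at 42.0 and 36.9 CPM in MUT, against 33.2 and 35.3 CPM in WT.

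Of 19 inhibitor genes 12 were tested, and over all 15364 tested genes 0.482% were called higher and 0.267% lower. Of the 12, 1 was called higher, 0 lower and 11 were not called, and the median log2 fold change was 0.017. The called gene was Serpina5, which encodes protein C inhibitor, an inhibitor of acrosin and other proteases in the male tract. It rose to 194 and 212 CPM in MUT, against 161 and 150.0 CPM in WT (log2 fold change 0.38, limma adjusted p = 0.0103), and the groups did not overlap. The 3 most abundant inhibitor genes did not pass the test. Acrbp, the gene of the acrosin-binding protein, was at 499 and 508 CPM in MUT, against 589 and 514 CPM in WT. Spink2, the gene of an acrosin inhibitor needed in spermatids, was at 304 and 334 CPM in MUT, against 342 and 320.1 CPM in WT, and Pebp1 at 1454 and 1375 CPM in MUT, against 1440 and 1371 CPM in WT.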

How the data were processed

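RNA of 4 testis libraries was analysed, 2 MUT and 2 WT. Per the labels' protocols, Trizol extraction, DNase I and the Illumina TruSeq stranded mRNA kit were used. The authors deposited CPM; the build mm10 and the tools edgeR 3.8.6, HTSeq 0.6.0 and TopHat2 2.0.10 are listed without roles, per the submitters' processing notes. Whether counting used strand was not found in the labels. All deposited values were whole multiples of 1 read within 0.001 (100%), which recovered the reads.

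Symbols at 1 CPM or more in at least 2 libraries were tested on log2(CPM + 0.5) with limma 3.58.1 (R 4.3.3; variance trend, two-sided, Benjamini-Hochberg over 15364 genes). The script was tested on simulated reads. Count tests on recovered reads called 75 higher and 41 lower genes (edgeR 4.0.16) and 86 and 71 (DESeq2 1.42.0). An exact permutation test of 2 against 2 cannot go below p = 0.333. Since separate animals are not stated, p-values reflect only how much these libraries vary, possibly for technical reasons. Fold changes understate those of low genes.

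Positions and exon lengths come from GENCODE M21 (GRCm38), whose names matched all 55 members; transcripts were aligned with blastn 2.17.0 (alignments of at least 100 nt). Members at a mean of 1 CPM or more, and called ones, were named; of the related lists, called genes and the 3 most abundant were. Marker genes named as examples, the promoters shown and the 6 members plotted by themselves were chosen with the values seen. Members, lists and tests were chosen with earlier results of these data known.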

Additional observations from a re-analysis of the deposited data

How the results depend on the processing

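Against 115 genes called over all, 11 were called without the filter on low values, 53 after quantile normalization, 7 without the variance trend and 116 to 280 with a library left out, when the lone library is assumed to vary like the other group; the cause was not tested. The members called numbered 0 without the filter and 0 without the trend, and 1 to 2 with a library left out. Prss35 had a log2 fold change of 0.617 in both of those fits and was called in 15 of 17 alternatives (0.531 to 0.703 with a library left out). With the replicate number as a replicate block, 57 genes were higher and 31 lower and Prss35 was called (limma adjusted p = 0.0017). Same-numbered libraries deviated from their group means with a correlation of -0.134 across genes; crossing the numbers, chosen after seeing the data, gave 235 calls.

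The 18 members at 10 CPM or more kept their number within 1.5 times under both other limits, while the 4 at 100 CPM or more became 10 at a limit of 50 CPM and 2 at 100 CPM per kb. Of the 32 tested members, 20 kept their direction in every alternative. Those that did not were not called in any. Under quantile normalization Prss45 (0.011) and Prss54 (0.0114) turned above 0, and under the total without the 100 most abundant genes Prss45 (0.017), Prss51 (0.0145) and Prss54 (0.014). With a library left out, log2 fold changes ran from -0.0985 to 0.231 for Prss21, -0.25 to 0.101 for Prss37, -0.047 to 0.113 for Prss38, -0.182 to 0.0365 for Prss39, -0.229 to 0.071 for Prss40, -0.0487 to 0.0379 for Prss45, -0.0605 to 0.17 for Prss46, -0.194 to 0.044 for Prss50, -0.132 to 0.117 for Prss51, -0.0374 to 0.166 for Prss52, -0.0871 to 0.0702 for Prss54 and -0.11 to 0.0124 for Tmprss12. Members under 1 CPM rest on few reads, and levels at or under 3 reads cannot be told from 0.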
